A study of Drosophila melanogaster with 84 samples.

Results

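The proteins of the mitochondrial ribosome were followed through their mRNAs in the abdominal fat body of adult female Drosophila melanogaster. Members were all genes of the deposited expression table whose symbol begins with mRpL (named for the large subunit) or mRpS (named for the small subunit). This gave 73 of 23932 features, 47 mRpL and 26 mRpS. Subunits are given here by symbol only, and the place of each protein in the particle was not checked. The mitochondrial ribosome sits inside the organelle and translates the few proteins that mitochondrial DNA encodes, core subunits of the oxidative phosphorylation complexes. Its own proteins are encoded in the nucleus, made in the cytosol and imported. Part of the set descends from the ribosome of the bacterial ancestor of mitochondria, and the rest are proteins that joined the particle later and have no counterpart in bacterial ribosomes. By the sorting used here, which went by the protein number in the symbol, 45 members were of bacterial type and 28 mitochondria-specific. The small-subunit proteins S12 and S15 carry the names tko and bonsai in flies, so they are not among the 73 and are given beside them.

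RNA was sequenced from 84 libraries in 4 groups, each library made from the pooled abdominal fat tissue of 10 flies. All flies were mated females kept in 12 h of light and 12 h of darkness. By the study's methods they were aged for about 3 days with males, entrained for 3 days, moved to 18°C at about 7 days of age or left at 25°C, and held for 5 more days before sampling, while the sample labels give an age of about 3 days at the start of the 5 days. Wild type was w1118, fed 15% sucrose and yeast (15SY) at 18°C or at 25°C, or 5% sucrose and yeast (5SY, dietary restriction) at 25°C, with 24 libraries in each group, 2 replicates at each of 12 time points from ZT2 to ZT24, where ZT is the number of hours after lights on. The fourth group carried Clk-Jrk, a mutation of the clock transcription factor Clock backcrossed 7 times to w1118, fed 15SY at 25°C, with 12 libraries, 2 replicates at each of 6 time points from ZT2 to ZT22. The samples were day-5 samples in every group. Flies were kept in a pair of incubators with opposite light schedules so that dissection took place in the daytime, and light phase and incubator cannot be told apart. The fat was collected attached to the epidermis after the gut, the ovaries and the Malpighian tubules had been pulled out, so remnants of other tissues can be present. The single wild-type group on 15SY at 25°C was the reference in all 3 comparisons, which are therefore not independent of each other.

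Levels are in TPM, a share of all transcripts in a library that is scaled for transcript length. Read depth is unknown from these values, and no counting error is given. Between 11497 and 14702 features were above 0 per library. The fat body markers summed to a median of 54378 TPM at 18°C, 85120 TPM in the reference group, 74680 TPM on 5SY and 123282 TPM in Clk-Jrk, with none of the 10 markers at a median of 0. The single markers did not all follow these sums. Against the reference group 4 of 10 were higher and 4 lower at 18°C (limma adjusted p below 0.05). On 5SY 1 was higher and 0 lower, and in Clk-Jrk 2 were higher and 3 lower. Markers of other tissues also moved between groups. The 8 ovary germline markers summed to medians of 145 TPM at 18°C, 276 TPM in the reference group, 176 TPM on 5SY and 150.1 TPM in Clk-Jrk, while 11 muscle markers summed to 3983, 2841, 3196 and 1810 TPM in the same order. The wild-type library of replicate 1 at ZT4 on 15SY at 25°C stood furthest from its own group, with a correlation of 0.901 with the group's median profile (at least 0.937 in every other library) and 831 TPM of germline markers, the highest of all. In Clk-Jrk the clock target tim was at a mean of 3.73 TPM against 61.7 TPM in wild type. In whole tissue, fewer cells of a type and less RNA per cell cannot be told apart.

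All 73 members were expressed in all 4 groups, and all passed the minimum of a median above 5 TPM. Their TPM summed to a median of 2210 TPM per library at 18°C (lowest 1760, highest 2814), 2506 TPM in the reference group (1987 to 3644), 2348 TPM on 5SY (1730 to 3088) and 2244 TPM in Clk-Jrk (1823 to 3177). The 4 ranges overlapped over most of their width. The most abundant members over all libraries were mRpS5 (mean 76.1 TPM), mRpL28 (74.2 TPM) and mRpS9 (73.2 TPM), all of bacterial type. The least abundant were mRpL50 (18.9 TPM), mRpL11 (17.0 TPM), a relative of the bacterial protein of the factor-binding region, and mRpL48 (16.03 TPM). Since TPM is scaled for length, these levels can be set against each other, and the most and the least abundant member differed by less than one order of magnitude. The 3 most abundant differed in how steady they were. In the reference group mRpS9 was at 73.6 ± 6.03 TPM (mean ± SD, n = 24), whereas mRpS5 was at 76.4 ± 26.7 TPM.

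Members moved together from library to library. The median Pearson correlation over the 2628 pairs of members was 0.60 across the 24 libraries at 18°C, 0.70 in the reference group, 0.61 on 5SY and 0.83 across the 12 Clk-Jrk libraries, while members and all other genes tested had median correlations of 0.06, 0.35, 0.17 and 0.47. These are descriptions over libraries that share time points and tissue composition, and after the libraries were rescaled by the median of ratios to a common reference the member pairs had medians of 0.72, 0.42, 0.81 and 0.65. The median coefficient of variation of a member was 18.3% to 20.3% in the 4 groups, against 21.9% to 25.6% for all genes tested. After rescaling it was below that of all genes in 3 groups and above it on 5SY (20.8%, against 20.2%).

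The 73 genes lay on all the large chromosome arms, with 12 on 2L, 12 on 2R, 17 on 3L, 21 on 3R and 11 on X. The genes spanned a median of 909 bases, from 390 (mRpL34) to 13391 (mRpS9). On assembly BDGP6, mRpL12 spans 3L:8956791-8957584 on the plus strand with 738 exonic bases and no exon shared with another gene, and mRpS17 spans 2R:24173665-24174441 on the minus strand with 713. The abundant mRpS5 spans 3L:24537236-24543534 with 1682 exonic bases. A total of 43 members shared exon bases with a neighbouring or overlapping gene, 8 of them over 20% of their exon bases, and because reads were not assigned by strand their levels are uncertain. Among the 8 were mRpL53, whose exon bases all lie in exons of AGO1 or CG33155 as well, mRpS14 (X:19479382-19480238, minus strand), which shared 35.8% with CG32533 and Naa15-16, and mRpS9 (25.1%).

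Temperature was compared in wild type on 15SY. At 18°C the mRNAs of the mitochondrial ribosome were lower: 38 of 73 members (52.1%) fell at 18°C, 0 rose and 35 were not called (limma on log2(TPM + 1) with time point as a factor, Benjamini-Hochberg adjusted p below 0.05), where 28.7% of the 7157 genes tested fell and 22.1% rose. At an unadjusted p below 0.05, 42 members (57.5%) were called in either direction, against 57.3% of all genes. The median log2 fold change over the members was -0.19, a change of -12.4%, against -0.06 over all genes tested, and 68 of 73 values were negative. The fall took in both subunits, with 22 of 47 large-subunit and 16 of 26 small-subunit members called, and both kinds of protein, with 23 of 45 bacterial-type and 15 of 28 mitochondria-specific members. Called changes ranged from -0.16 (mRpS21) to -0.79 (mRpL12). In the mean of the replicates 22 members, all of them called, were lower at 18°C at each of the 12 time points. The same count was not made over all genes, so whether 22 is many was not tested.

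**Figure D1:**
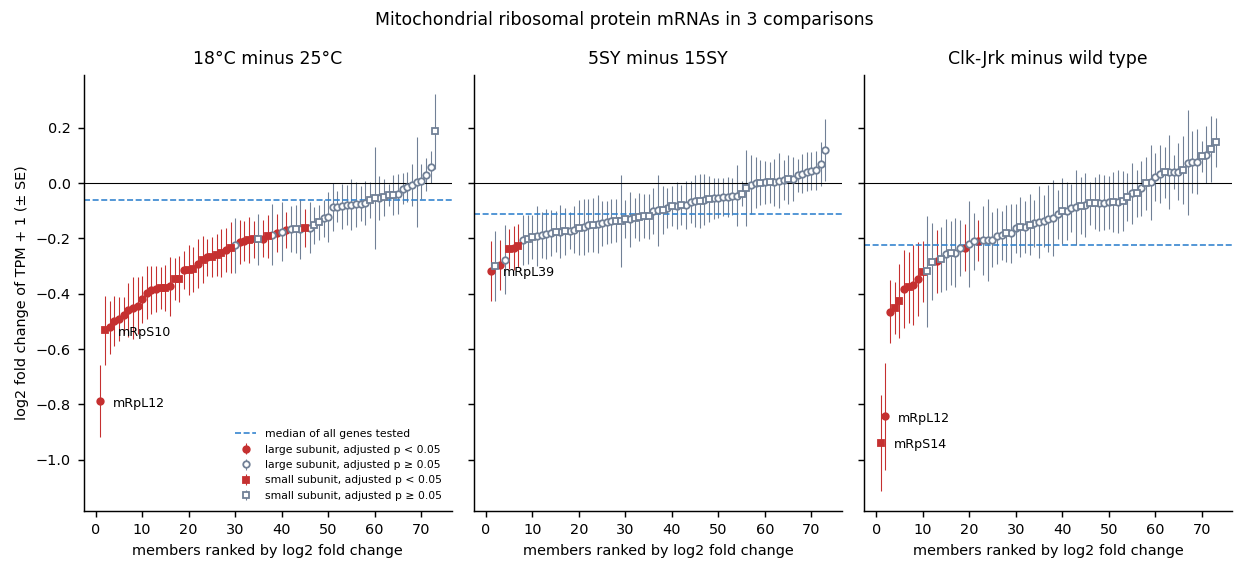
Log2 fold change of TPM + 1 (± SE) for each of the 73 members, ranked within each comparison, with circles for the large and squares for the small subunit, filled in red at an adjusted p below 0.05. The dashed line is the median of all genes tested (-0.06 at 18°C, -0.11 on 5SY, -0.22 in Clk-Jrk), and the members lay mostly below it at 18°C and mostly above it in Clk-Jrk, where after rescaling of the libraries the member median was above 0.

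The member that fell furthest was mRpL12, the protein of the flexible stalk that in bacterial ribosomes recruits the translation factors. It was at 14.15, 30.53 and 56.96 TPM (lowest, median, highest of 24) at 18°C and at 29.28, 53.51 and 93.33 TPM at 25°C. Its log2 fold change was -0.79 ± 0.13 (SE; limma adjusted p = 5.24e-06), a fall to 0.579 of the 25°C level. The size of the fall differed by replicate, with means of 26.25 and 41.2 TPM in replicates 1 and 2 at 18°C. At 25°C the replicate means were 55.0 and 59.7 TPM. The median at 18°C lay close to the lowest library at 25°C, and the ranges overlapped between 29.28 and 56.96 TPM. Groups overlapped for all 73 members, a count that was not made over all genes.

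mRpS10, of the small-subunit head, had 11.33, 19.49 and 32.57 TPM at 18°C and 15.96, 28.03 and 59.35 TPM at 25°C, a log2 fold change of -0.53 ± 0.12 (limma adjusted p = 0.000586). The next 3 were mitochondria-specific proteins of the large subunit. mRpL50 had 9.07, 13.65 and 23.1 TPM against 12.82, 20.74 and 35.45 TPM (-0.52 ± 0.097, limma adjusted p = 3.54e-05). All 3 were lower at every time point. mRpL54 had 16.85, 21.02 and 29.87 TPM against 19.43, 30.64 and 64.32 TPM (-0.50 ± 0.090, limma adjusted p = 2.47e-05). mRpL49 had 21.67, 32 and 42.55 TPM against 31.55, 43.65 and 66.25 TPM (-0.49 ± 0.079, limma adjusted p = 3.60e-06). The median at 25°C was above the highest value at 18°C for mRpL54 and mRpL49.

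The 2 most abundant members were not called: mRpL28 was at 74.1 ± 12.5 TPM at 18°C and 75.7 ± 9.35 TPM at 25°C (log2 fold change -0.04, limma adjusted p = 0.661), and mRpS5 had the highest fold change of all members (0.19, limma adjusted p = 0.246). The proteins under other names fell with the members, tko by 0.36 on the log2 scale (limma adjusted p = 0.00830) and bonsai by 0.27 (0.00426).

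Other parts of the mitochondrial gene expression machinery were read beside the members. Of 8 mitochondrial translation factors tested, 4 fell at 18°C and 0 rose: the release factor mRF1 (log2 fold change -0.64), the elongation factors mEFTu1 (-0.39) and mEFTs (-0.21), and the recycling factor mRRF1 (-0.29). Among the 13 mitochondrial aminoacyl-tRNA synthetases 3 fell (23.1%). Of 9 genes for mitochondrial DNA and RNA upkeep 4 fell (44.4%), including the DNA-packaging factor TFAM (-0.36). None of the genes of these lists rose, where 28.7% of all genes fell and 22.1% rose. The 13 protein genes of mitochondrial DNA itself had no call in either direction by limma, also none at an unadjusted p below 0.05. The SEs of their log2 fold changes ran from 0.187 (mt:ND4) to 0.316 (mt:ND2), and transcripts of mitochondrial DNA differed between replicates in both groups. The lack of a call therefore does not show that these genes were unchanged. Of 83 cytosolic ribosomal protein genes 13 fell and 1 rose (15.7% and 1.20%), both below the shares of all genes. After rescaling 6 of them fell and 1 rose (31.9% and 24.3% of all genes). Among 5 transcriptional regulators tied to mitochondrial or ribosomal gene expression 3 fell: srl, the fly PGC-1 (-0.71), Ets97D, the alpha subunit of the fly NRF-2/GABP (-0.57), and Dref (-0.32). With the ovary germline marker level as a covariate 0 regulators fell and 1 rose, with srl at -0.06, Ets97D at -0.22 and Dref at -0.07. On that fit 3 translation factors fell and 1 rose, 1 synthetase fell and 3 rose, and 0 upkeep genes fell and 1 rose. Neither tko (-0.26) nor bonsai (-0.09) was called. Of all genes 13.3% fell and 28.5% rose.

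The size of the fall at 18°C differed between the replicates. With replicate 2 alone 11 members fell (median log2 fold change -0.08; 10.9% of all genes fell), and with replicate 1 alone 42 did (median -0.33; 20.6% of all genes). All 11 were among the 38. After the libraries were rescaled 38 fell as well, 35 of them the same (31.9% of all genes). Ovary and follicle cell markers were lower at 18°C (7 of 8 and 11 of 11 called) and muscle markers higher (10 of 11 called). With the ovary germline marker level as a covariate 21 members fell and 3 rose (mRpL15, mRpL17 and mRpS5; 13.3% of all genes fell and 28.5% rose), and with germline, follicle cell and muscle marker levels together 3 fell and 6 rose (7.34% and 17.7% of all genes), with the median at 0.03, on the other side of 0.

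Diet was compared in wild type at 25°C. Few members were called on 5SY: 5 of 73 (6.85%) fell and 0 rose, where 21.2% of the 7000 genes tested fell and 6.13% rose, and 16 members (21.9%) were called at an unadjusted p below 0.05, against 42.1% of all genes. The median log2 fold change over the members was -0.10, against -0.11 over all genes tested. After rescaling, which moved the median of all genes by 0.11, the member median was 0.01, on the other side of 0, with 2 members lower and 2 higher (20.8% and 13.8% of all genes).

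The 5 that fell were mRpL39, mRpL1, mRpS28, mRpL14 and mRpS18B. mRpL39, a mitochondria-specific protein, had 17.3, 25.94 and 37.44 TPM (lowest, median, highest of 24) on 5SY and 18.89, 32.30 and 61.86 TPM on 15SY, a log2 fold change of -0.32 (limma adjusted p = 0.0298). mRpL1, whose bacterial relative forms the mobile stalk at the exit site of tRNA, had 18.11, 24.99 and 33.23 TPM against 19.24, 29.98 and 56.62 TPM (-0.30, limma adjusted p = 0.0200). For both, the high end of the range on 15SY was absent on 5SY, while the low ends lay close together. mRpS28 had 22.43, 29.62 and 35.41 TPM against 23.74, 34.74 and 50.38 TPM (-0.24, limma adjusted p = 0.0193). mRpL14 had 21.89, 31.48 and 38.93 TPM against 24.03, 35.90 and 50.57 TPM (-0.23, limma adjusted p = 0.0290). mRpS18B, from the S18 family, had 13.70, 18.91 and 24.91 TPM against 16.24, 21.62 and 36 TPM (-0.23, limma adjusted p = 0.0306). Groups overlapped for all 5.

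mRpL1 and mRpL39 were also the 2 lower members after rescaling, beside mRpL24 and mRpL33, which were then called higher. mRpL24, at the mouth of the exit tunnel in bacterial ribosomes, was at 45.5 ± 7.19 TPM on 5SY and 44.5 ± 6.14 TPM on 15SY. mRpL12 was at 47.3 ± 14.2 TPM on 5SY and 57.4 ± 17.3 TPM on 15SY (log2 fold change -0.28, limma adjusted p = 0.0862). Outside the members, 0 of 8 translation factors were called by limma (1 at an unadjusted p below 0.05), 1 of 12 mitochondrial aminoacyl-tRNA synthetases (SerRS-m, -0.25) and 1 of 9 genes for mitochondrial DNA and RNA upkeep (PNPase, -0.26) fell, and of the 13 mitochondrially encoded protein genes 0 were called (2 at an unadjusted p below 0.05). The regulators srl (-0.83), Ets97D (-0.50) and Myc (-0.46) fell. With the ovary germline marker level as a covariate 0 genes of these lists were called, with srl at -0.003, Ets97D at -0.15 and Myc at -0.07. Of all genes 0% fell and 0.9% rose on that fit.

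The number lower was 8 with no time term (24.9% of all genes) and 8 with a cosine and sine in its place (25.6%). It was 12 with the replicate number as a term in the fit (32.8%). The calls also differed between replicates. With replicate 1 alone limma called 0 members lower (13 at an unadjusted p below 0.05; 0% of all genes), with replicate 2 alone 4 fell and 3 rose (43.9% and 12.3% of all genes), and without the reference library at ZT4 only mRpL1 and mRpS28 remained (12.4% of all genes fell). On 5SY germline (7 of 8 called) and follicle cell markers (7 of 11) were lower and muscle markers higher (4 of 11), and with the germline level as a covariate limma called 0 members lower (2 at an unadjusted p below 0.05) and 0 higher, where 0% of all genes fell and 0.9% rose.

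Genotype was compared on 15SY at 25°C, between the 12 Clk-Jrk libraries and the 12 wild-type libraries of the same 6 time points. A total of 13 of 73 members (17.8%) fell in Clk-Jrk and 0 rose, where 36.3% of the 7093 genes tested fell and 9.87% rose, and 17 members (23.3%) were called at an unadjusted p below 0.05, against 55.3% of all genes. The median log2 fold change over the members was -0.13, against -0.22 over all genes tested, and 54 of 73 members lay above that median. Of the 13, 8 were of the large and 5 of the small subunit, and 11 were of bacterial type and 2 mitochondria-specific. After rescaling, which moved the median of all genes by 0.24, the member median was 0.12, on the other side of 0, with 4 members lower and 19 higher (17% and 24% of all genes).

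The 4 that were lower on either scale were mRpS14, mRpL12, mRpL23 and mRpS11. mRpS14, a small-subunit protein of bacterial type, was at 9.81, 18.26 and 24.05 TPM (lowest, median, highest of 12) in Clk-Jrk and at 19.02, 36.05 and 44.72 TPM in wild type. Its log2 fold change was -0.94 ± 0.17 (limma adjusted p = 0.000341), the largest fall of any member in any comparison. It was lower at all 6 time points, and the wild-type median was above every Clk-Jrk library. mRpL12 was at 17.12, 32.67 and 49.00 TPM in Clk-Jrk and at 29.28, 59.63 and 88.68 TPM in wild type (-0.84 ± 0.19, limma adjusted p = 0.00198), lower at 5 of 6 time points.

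mRpL23, which in bacterial ribosomes lies at the exit of the peptide tunnel, had 14.83, 25.44 and 40.72 TPM in Clk-Jrk and 27.44, 33.90 and 42.58 TPM in wild type (-0.47 ± 0.11, limma adjusted p = 0.00304). mRpS11, of the small-subunit platform, had 20.65, 25.34 and 34.33 TPM against 27.19, 36.41 and 39.62 TPM (-0.45 ± 0.093, limma adjusted p = 0.000872). For both, the median in Clk-Jrk lay below every wild-type library. mRpS5, the most abundant member, had 25.42, 57.44 and 73.30 TPM against 52.80, 73.25 and 106.23 TPM, a log2 fold change of -0.43 ± 0.13 (limma adjusted p = 0.0149) that was -0.17 after rescaling (limma adjusted p = 0.198).

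The other 8 that fell, mRpL39, mRpS6, mRpL48, mRpL27, mRpS18A, mRpL14, mRpL33 and mRpL28, had log2 fold changes from -0.38 to -0.21, and none of them was lower after rescaling, where mRpL33 and mRpL28 had values of 0.02 and 0.04. mRpS17 had the highest fold change of the members, with 32.8 ± 4.67 TPM in Clk-Jrk and 29.7 ± 5.71 TPM in wild type (0.15, limma adjusted p = 0.177). After rescaling it was 0.40 (limma adjusted p = 0.000235). Of the proteins under other names, tko fell (-0.51, limma adjusted p = 0.0248) and bonsai had a log2 fold change of 0.00.

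Around the members, 1 of 8 translation factors fell in Clk-Jrk (mRRF1, -0.38), 0 of 13 mitochondrial aminoacyl-tRNA synthetases fell and 1 rose (AlaRS-m, 0.19), and 0 of 9 genes for mitochondrial DNA and RNA upkeep were called by limma (1 at an unadjusted p below 0.05). Of the 13 protein genes of mitochondrial DNA 4 fell, mt:ND6 (-5.50), mt:ND4L (-3.70), mt:ND2 (-2.45) and mt:ATPase8 (-2.33), all from libraries selected for poly(A). Of 83 cytosolic ribosomal protein genes 21 fell and 1 rose, where 36.3% of all genes fell and 9.87% rose. After rescaling 1 of the 83 fell and 24 rose, and their median log2 fold change went from -0.10 to 0.16. On that scale 9 synthetases, 2 translation factors and 3 upkeep genes rose and 0 fell (24% and 17% of all genes). The regulators Myc (-1.52), srl (-1.16), ewg, the fly NRF-1 (-0.60), and Dref (-0.33) fell. With the ovary germline marker level as a covariate Myc (-1.31), srl (-0.63) and ewg (-0.44) fell, where 26.1% of all genes fell. Dref (-0.15) and tko (-0.24) were not called on that fit. Of the cytosolic ribosomal protein genes 8 fell and 3 rose with the covariate (26.1% and 9.81% of all genes).

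The genotype calls also differed between replicates. With replicate 2 alone 32 members fell (median log2 fold change -0.31; 32.5% of all genes), including 12 of the 13, and with replicate 1 alone only mRpS5 fell (median 0.02, on the other side of 0; 7.40% of all genes). Within replicate 1 mRpS14 had a log2 fold change of -0.51 (limma adjusted p = 0.213) and within replicate 2 of -1.36 (0.00221). Muscle markers were lower in Clk-Jrk (10 of 11 called), as were 2 of 8 germline markers. With the germline level as a covariate 5 members fell (mRpS14, mRpL12, mRpL23, mRpS11 and mRpL33) and 5 rose (mRpL19, mRpS9, mRpL3, mRpS23 and mRpS17), where 26.1% of all genes fell and 9.81% rose, and with 3 marker levels together only mRpS14 and mRpL12 fell (2.24% of all genes).

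The time of day was read with a harmonic regression of TPM on a 24 h cosine and sine within each group, with p below 0.1 as the threshold. At 18°C 6 of 73 members (8.22%) passed, against 30.1% of all genes tested, and after rescaling 18 did (24.7%, against 31.6%). With the replicate number as a term in the fit 17 did (23.3%, against 41.3%). In the reference group 13 passed (17.8%, against 18.9%), on 5SY 1 passed (1.37%, against 9.70%) and in Clk-Jrk 5 passed (6.85%, against 17%). Under a Benjamini-Hochberg adjusted p below 0.05 only 1 member in 1 group remained, mRpS17 at 18°C, where 4.46% of all genes passed (0.475% in the reference group, 0.386% on 5SY and 0% in Clk-Jrk). The members' share was near that of all genes in the reference group, where 5 passed after rescaling (6.85%, against 19.2%), and below it in the other 3.

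mRpS17, a small-subunit protein of bacterial type that binds rRNA, had a mean of 27.9 TPM at 18°C, an amplitude of 4.80 ± 1.04 TPM (17.2% of the mean) and a peak at ZT2.56 ± 0.830 (harmonic regression F-test, p = 0.000656, adjusted p = 0.0251). It was high around the change from dark to light and lowest at ZT12 in both replicates, and either replicate alone gave a peak on the same side of the day, at ZT3.62 (p = 0.0198) and ZT1.41 (p = 0.00373). In the reference group it had an amplitude of 3.90 ± 1.69 TPM and a peak at ZT2.18 (p = 0.0920). The other members that passed at 18°C were mRpL34 (peak ZT5.17, p = 0.00850), the mitochondria-specific mRpS33 (ZT3.84, p = 0.0301) and mRpL46 (ZT5.90, p = 0.0341), mRpS18C and mRpS26. Of the 6, 5 peaked between ZT0 and ZT6, as did 19.0% of all genes that passed.

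**Figure D2:**
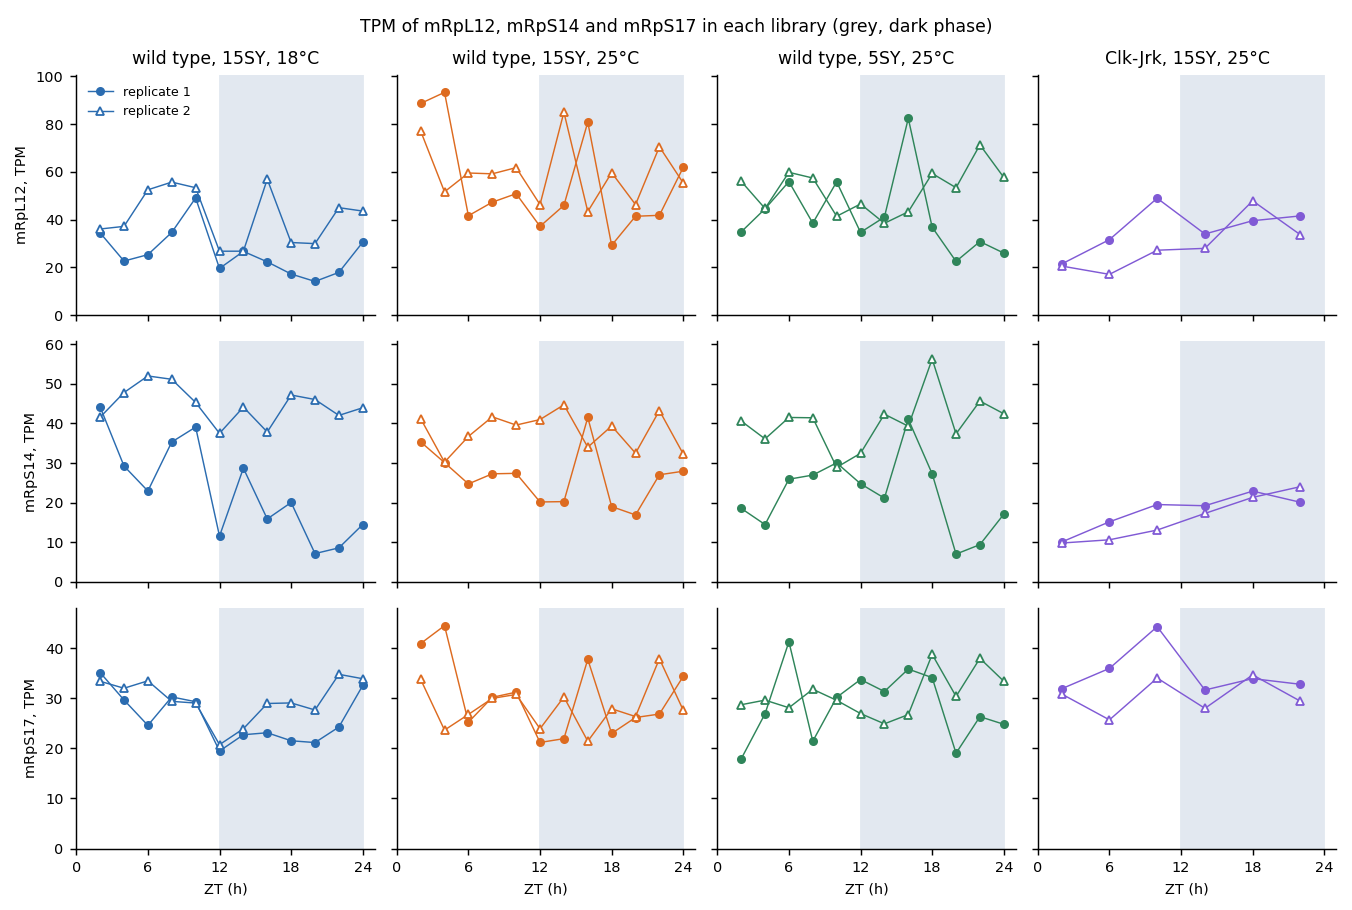
TPM of mRpL12, mRpS14 and mRpS17 (1 row each) against ZT in hours for every library, 1 column per group, with filled circles for replicate 1, open triangles for replicate 2 and grey for the dark phase. mRpL12 was lower at 18°C and in Clk-Jrk than in the reference group. mRpS14 had a higher mean in replicate 2 in the wild-type groups, with ranges that overlapped at 18°C and in the reference group. It lay between 9.81 and 24.05 TPM in Clk-Jrk. mRpS17 at 18°C followed the same course in both replicates.

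In the reference group 12 of the 13 peaks fell between ZT0 and ZT6, as did 55.7% of those of all genes that passed. mRpL34, of bacterial type, had the lowest p (0.0223, peak ZT2.42, amplitude 6.87 ± 2.27 TPM, 21.4% of the mean), followed by mRpL24 (p = 0.0372, peak ZT23.3), mRpL47 (p = 0.0546, ZT1.39) and mRpL3 (p = 0.0591, ZT3.64). Their adjusted p was 0.477 to 0.483. Without the library at ZT4 that stood apart, which had the highest mean level of all (5.57 on the log2 scale), 3 members passed in place of 13 (4.11%, against 12.1% of all genes). On 5SY the single member was mRpL53 (p = 0.0971, peak ZT22.3), the gene that lies within exons of others. In Clk-Jrk the 5 were mRpS14 (p = 0.0108, peak ZT17.5, amplitude 5.47 ± 1.39 TPM, 32.3% of the mean), mRpL35 (p = 0.0453, ZT12.2), mRpL43 (p = 0.0508, ZT13.4), mRpL16 (p = 0.0510, ZT16.6) and mRpL2 (p = 0.0890, ZT16.5), with adjusted p of at least 0.475. All 5 peaks lay between ZT12 and ZT18, as did 34.2% of those of all genes that passed.

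No difference in rhythm between groups was called for any member: the test of group by cosine and sine (limma on log2(TPM + 1), Benjamini-Hochberg adjusted p below 0.05) called 0 members for temperature (1.05% of all genes), 0 for diet (0%) and 0 for genotype (0.0564%). At an unadjusted p below 0.05 it called 2 members for temperature (23.9% of all genes), 1 for diet (1.41%) and 4 for genotype (9.15%). The smallest p belonged to mRpL39 (0.0322) and mRpL1 (0.0419) for temperature, mRpL3 (0.0392) for diet, and mRpL43 (0.0199) and mRpS14 (0.0338) for genotype, with limma adjusted p of at least 0.180.

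**Figure D3:**
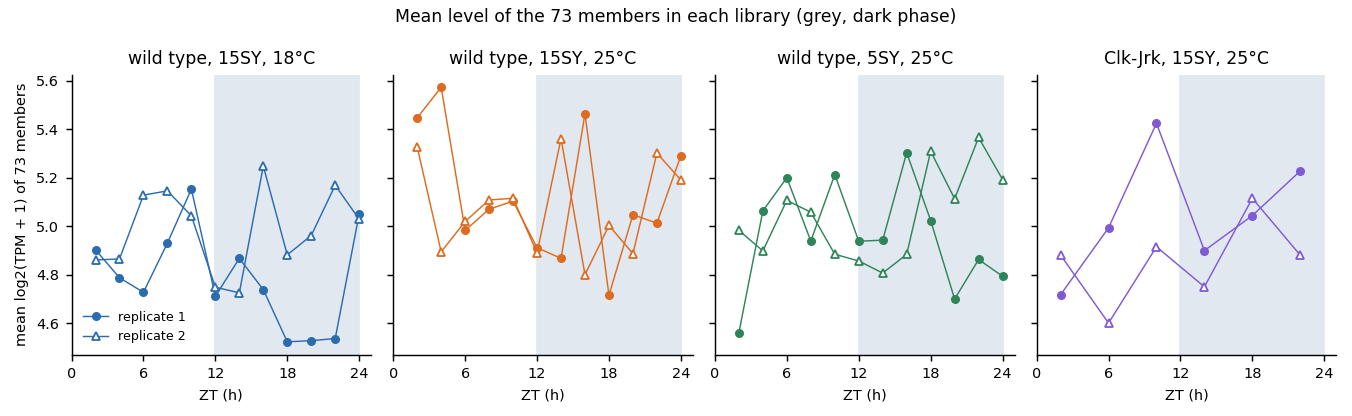
Mean log2(TPM + 1) of the 73 members in each library against ZT in hours, 1 panel per group, with filled circles for replicate 1, open triangles for replicate 2 and grey for the dark phase. The replicates crossed and parted within each group, most clearly on 5SY, where replicate 1 was lowest at ZT2 (4.56) and replicate 2 highest at ZT22 (5.37). That replicate 1 library at ZT2 had 50.8% of its TPM in its 20 most abundant features, against at most 38.7% in every other library.

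The level of single members differed between replicate 1 and replicate 2 within the wild-type groups, in fits added after the data were seen. At 18°C 31 members were higher and 4 lower in replicate 2 (limma with Benjamini-Hochberg adjusted p below 0.05; 15.4% and 33.1% of all genes), in the reference group 6 were higher and 8 lower (12.1% and 27.7%), on 5SY 13 were higher and 6 lower (8.81% and 53.7%), and in Clk-Jrk 0 were called (6 at an unadjusted p below 0.05), as were 0% of all genes. Tissue markers also differed between the replicates: on 5SY the germline markers summed to means of 229 and 67.8 TPM and the follicle cell markers to 1922 and 396 TPM in replicates 1 and 2, and at 18°C the muscle markers to 5314 and 3194 TPM. Transcripts of mitochondrial DNA summed to 117573 to 273811 TPM in replicate 1 and 72669.2 to 93619.7 TPM in replicate 2 at 18°C. In the reference group the ranges were 111905 to 179318 TPM and 57619.8 to 70690.5 TPM. On 5SY and in Clk-Jrk the ranges of the replicates overlapped. The part of the tissue markers and of these transcripts in the replicate differences was not tested. The members described next were chosen after their values were seen. mRpS5 was lower in replicate 2 in each wild-type group, with means of 107.2 and 66.1 TPM at 18°C (n = 12 each), 94.3 and 58.6 TPM in the reference group and 93.0 and 58.1 TPM on 5SY. mRpS14 went the other way, with 23.1 TPM (7.15 to 44.18) and 44.7 TPM (37.51 to 52.00) at 18°C, 26.5 and 38.1 TPM in the reference group and 21.99 and 40.4 TPM on 5SY. mRpL2 was also higher in replicate 2, at 20.6 and 40.5 TPM at 18°C, where the ranges of the replicates did not overlap. In Clk-Jrk the replicates had means of 54.7 and 55.9 TPM for mRpS5, 17.8 and 16.04 TPM for mRpS14 and 32.04 and 28.5 TPM for mRpL2. mRpL28 was at 64.8 and 83.5 TPM in replicates 1 and 2 at 18°C.

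Taken singly, the replicates gave different counts of rhythmic members from the pooled data. At 18°C 23 members passed in replicate 1 alone (31.5%, against 32.9% of all genes) and 2 in replicate 2 alone (2.74%, against 24.4%). Of the 23 peaks 15 lay between ZT6 and ZT12 and 7 between ZT0 and ZT6. After rescaling 26 and 13 members passed in replicates 1 and 2 (31.0% and 24.0% of all genes). Of these 20 and 10 peaked between ZT0 and ZT6. In the reference group 1 and 0 members passed in replicates 1 and 2, against 10.7% and 11.5% of all genes. In Clk-Jrk 1 and 9 passed, against 20% and 6.71%. After rescaling the counts were 0 and 8 in the reference group (9.93% and 9.68% of all genes). In Clk-Jrk they were then 1 and 6 (17.2% and 9.15%).

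The contrast was widest on 5SY. There 14 members passed in replicate 1 alone (19.2%, against 12.8% of all genes), 13 of them with a peak between ZT6 and ZT12, and 40 passed in replicate 2 alone (54.8%, against 14.4%), 38 of them with a peak between ZT18 and ZT24. Members moved together on 5SY (median correlation of pairs 0.61, and 0.81 after rescaling), so these are not counts of separate rhythms. A total of 6 members passed in both replicates, mRpL27, mRpL44, mRpL49, mRpL51, mRpS10 and mRpS35, and for 0 of them were the peaks within 3 h of each other. mRpL27, one of those 6 and named after its values were seen, peaked at ZT10.6 in replicate 1 (p = 0.00178) and at ZT22.1 in replicate 2 (p = 0.0434), and with the replicates pooled its p was 0.949. In the same libraries the clock genes peaked close together in replicates 1 and 2, tim at ZT17.7 and ZT18.0, vri at ZT15.1 and ZT15.2, per at ZT15.5 and ZT16.3, and Clk at ZT4.32 and ZT5.37. After rescaling, 16 members passed in replicate 1 (17.1% of all genes) with 12 peaks between ZT6 and ZT12, and 30 in replicate 2 (17.0% of all genes) with 29 peaks between ZT18 and ZT24.

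**Figure D4:**
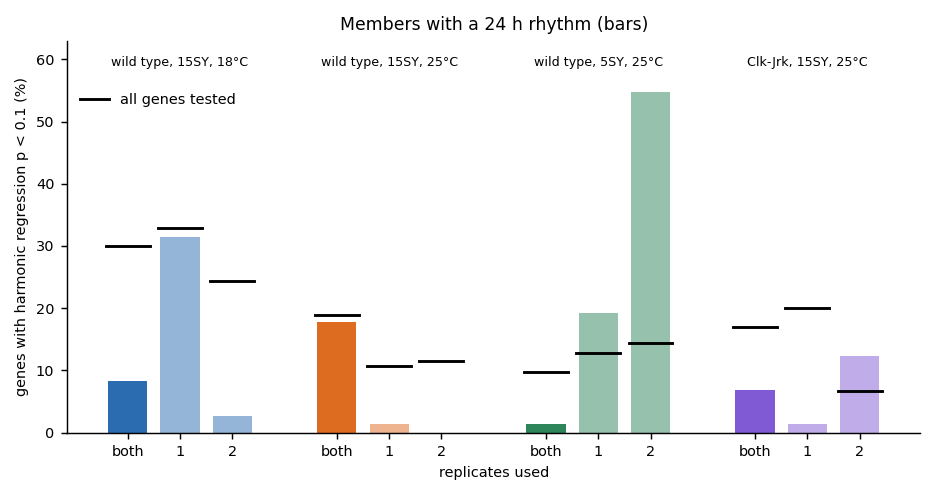
Percent of the 73 members with a harmonic regression p below 0.1 (bars) in each group, from both replicates together, replicate 1 alone or replicate 2 alone, with a black line for the percent of all genes tested. With both replicates together the members were near the line in the reference group (17.8%, against 18.9%) and below it in the other groups. On 5SY the replicates alone gave 19.2% and 54.8% where together they gave 1.37%.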

How the data were processed

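Abdominal fat body RNA (poly(A)-selected, TruSeq, single-end) was sequenced in 84 libraries. The authors aligned reads with STAR 2.7.10a to BDGP6 and quantified them with RSEM 1.3.1, without strand, and deposited TPM with 2 decimals for 23932 features, columns summing to 999999 to 1000001. TPM keep no read depth, so no count test was used.

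Groups, replicates and ZT were read from sample titles. In R 4.3.3, limma 3.58.1 (trend) was fitted to log2(TPM + 1), with time point as a factor and only the groups compared, over genes with a median above 5 TPM in either group. The Clk-Jrk comparison used its 12 libraries and the 12 wild-type libraries at the same 6 ZT. p-values were adjusted by Benjamini-Hochberg over all genes tested. Fold changes are on the log2(TPM + 1) scale, which understates change in low genes. Rhythms were fitted by harmonic regression of TPM (24 h, F-test), and differences in rhythm as interactions of group with cosine and sine. The model was tested on simulated data. Whether replicate libraries came from separately reared flies is not given in the sources used here, so p-values measure the spread between these libraries.

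Members with values were the 5 highest and 5 lowest called fold changes per comparison (where fewer than 3 were called, the 3 smallest p), the 4 smallest harmonic p per group, the 3 smallest p per difference in rhythm, the 3 highest and 3 lowest mean TPM, and mRpL24, mRpS17 and mRpS6, plus tko, bonsai and called genes of the context lists. Members and lists were chosen with earlier results of these data known. Positions and exon overlaps come from the Ensembl annotation of the BDGP6 assembly, a later release than the authors'.

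Alternatives were a pseudocount of 0.1, a minimum of 1 TPM or none, median-of-ratios rescaling, other time terms, a replicate block and leaving out each replicate. Marker covariates, leaving out the ZT4 library and fits within each replicate were added after seeing the data.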

Additional observations from a re-analysis of the deposited data

How the results depend on the processing

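The counts of called members in the 3 mean comparisons stayed within 1.5 times under the other pseudocount and minimum TPM, but for diet with no minimum. Median log2 fold changes ranged, with a replicate left out, from -0.33 to -0.077 for temperature and from -0.31 to 0.023 for genotype. Members lower then ranged from 11 to 42 (higher 0 to 1) for temperature, 0 to 4 (higher 0 to 3) for diet and 1 to 32 for genotype. Under rescaling, the median was 0.014 for diet (2 lower, 2 higher) and 0.12 for genotype (4 lower, 19 higher). With germline markers as a covariate it was -0.094 for temperature (21 lower, 3 higher) and 0.014 for genotype (5 lower, 5 higher), and for diet 0 were lower. With 3 marker levels it was 0.025 for temperature (3 lower, 6 higher), and 0 were lower for diet and 2 for genotype. For diet, lower members numbered 2 with no minimum (4.52% of all genes), 8 with no time term, 8 with cosine and sine and 2 without the ZT4 library. Rhythmic members (percent of all genes in parentheses) at 18°C were 18 after rescaling (31.6%) and 2 to 23 in single replicates (24.4% and 32.9%), in the reference group 5 after rescaling (19.2%), 3 without the ZT4 library (12.1%) and 0 to 1 (11.5% and 10.7%), on 5SY 3 after rescaling (12.5%), 0 on a log2 scale with pseudocounts of 1 or 0.1 (9.6% for both), 0 with a light-dark step (5.71%) and 14 to 40 (12.8% and 14.4%), and in Clk-Jrk 3 with the step (23.7%) and 1 to 9 (20% and 6.71%). Under an adjusted p they were 1, 0, 0 and 0 (4.46%, 0.475%, 0.386% and 0%). As to pairing, deviations of same-numbered libraries of the 2 groups had a mean correlation of 0.28 for temperature (10 of 12 time points above 0.1). For diet it was 0.27 (11 of 12) and for genotype -0.17 (1 of 6). Same-numbered libraries thus mostly deviated together for temperature and diet, and did not for genotype. What libraries of the same number shared was not tested. The replicate block gave 43 lower and 1 higher (33% and 25.7% of all genes), 12 lower (32.8%) and 14 lower (36.8%), and 17 rhythmic members at 18°C (41.3% of all genes). Why the calls moved was not tested; read depth is unknown.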
